A study of Mus musculus with 9 samples.

Results

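This account covers the probe sets of an exon array that carry no gene symbol in the annotation table of the array platform. A probe set is a small group of short probes that reads about 1 exon or 1 stretch of an exon. The annotation table listed 212362 of the 229581 measured probe sets with at least 1 symbol, and the remaining 17219, or 7.5%, had no entry in it. They are unnamed here, which does not say that they lie outside genes. All 17219 were missing from the table rather than listed with an empty symbol. Of these, 10283 had a mean over the 9 arrays above 5.01 on the log2 scale, the 25th percentile of all probe sets, and these 10283 unnamed probe sets are described below. The other 6936 lay at or under that limit. The share of unnamed probe sets above the limit was 59.72%, against 76.24% of the named ones.

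The tissue was perigonadal white fat from mice of 4 months, and each of 3 groups had 3 arrays. One group was wild type (WT). In a second group both copies of the gene Lmna carried the G609G allele, and in the third both carried the LCS allele. The labels give the genotypes only as G609G/G609G and LCS/LCS. They do not state the sex, the strain or whether RNA of several animals was pooled. Nothing beyond the word biological says that arrays of a group came from separate animals, so a p-value measures the spread between these arrays, which may be technical.

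Lmna is the gene of lamin A and lamin C, filament proteins that line the inside of the nuclear envelope. G609G is known as the mouse counterpart of the human progeria mutation and activates a splice site, which yields the truncated lamin A called progerin. LCS is known as an allele from which lamin C is made and lamin A is not. Perigonadal fat is a visceral depot that in males lies against the epididymis, the duct in which sperm mature, and close to the testis and the abdominal wall. On exon arrays the probe sets cover well supported exons as well as predicted and expressed-sequence regions, so that an unnamed probe set can read an exon missing from older gene models, an untranslated end, a non-coding transcript or nothing.

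Across all probe sets the array medians were 7.17 to 7.28 in WT, 6.52 to 6.63 in G609G and 7.19 to 7.26 in LCS, while the lowest and highest values nearly coincided. Values are therefore given as deposited and, for counts in G609G, also relative to the median probe set, which removes an offset of -0.48 from G609G minus WT, -0.51 from G609G minus LCS and 0.03 from LCS minus WT. Defining genes of the labelled tissue were present: 14 measured adipocyte genes had list means of 11.88 to 11.92 in WT, 10.67 to 10.75 in G609G and 12.15 to 12.16 in LCS. Genes of neighbouring tissues also differed between groups. For 14 skeletal muscle genes the WT arrays had list means of 5.22 to 5.35, the G609G arrays 11.41 to 11.49 and the LCS arrays 5.49 to 5.55. The mean of 14 epididymal genes was 11.83 to 11.9, 7.66 to 7.79 and 10.86 to 10.96 in the same order. The mean of 11 testis germ cell genes was 9.35 to 9.46, 7.4 to 7.57 and 5.6 to 5.64. In bulk tissue fewer cells of a type and less RNA per cell cannot be told apart, and these lists stand beside the unnamed probe sets below without a test of their part in any result.

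The unnamed probe sets were dimmer than the named ones. The median level was 5.71 over all 17219 unnamed probe sets and 7.06 over the named ones, and above the limit of 5.01 it was 7.39 against 7.83. The lowest class, from 5 to 6, held 2326 unnamed probe sets, or 22.62%, against 15.74% of the named ones. The top of the scale ran the other way. The class from 13 to 15 held 106 unnamed probe sets, or 1.031%, against 0.2162% of the named ones, and the class from 12 to 13 held 257, or 2.499%, against 1.07%. The unnamed probe sets thus had more members at both ends of the intensity range, with fewer between 7 and 11. The limit itself passed between near equals: probe sets 4378391 and 4638623 were the nearest above it and 4726170 and 4734201 the nearest below, all with means of 5.01 after rounding.

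**Figure D1:**
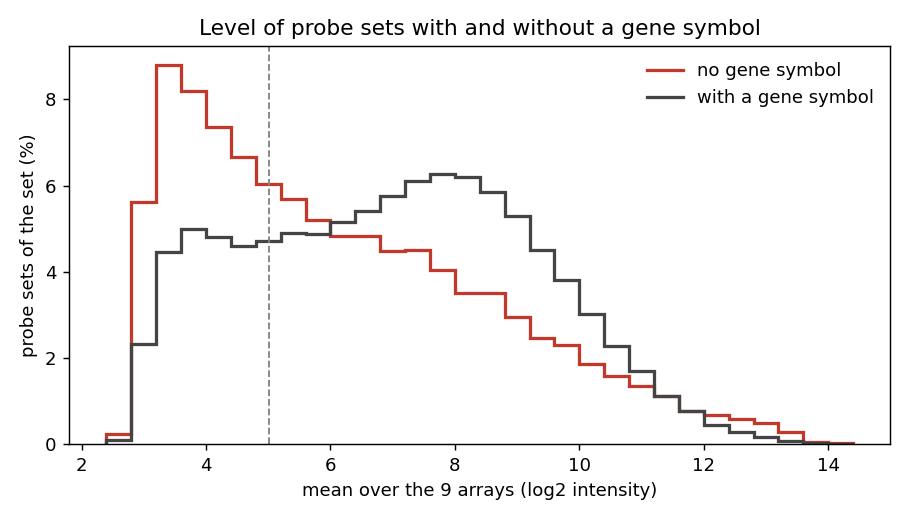
Distribution of the mean log2 intensity over the 9 arrays for all 17219 unnamed probe sets (red) and all 212362 named ones (grey), as a percent of each set per class of intensity. The dashed line marks the limit of 5.01, and the red line lies above the grey one below 6 and again above 12.

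The 5 brightest unnamed probe sets, 5487069, 5419883, 5131905, 4753803 and 4758041, lay near the ceiling of the scale on every array. Probe set 5487069 had 14.32, 14.28 and 14.33 in WT, 14.31, 14.30 and 14.32 in G609G and 14.29, 14.30 and 14.36 in LCS. The groups overlapped there, and the limma test gave a log2 difference of 0 (SE 0.03) between G609G and WT. Probe set 5131905 had 14.09, 14.03 and 14.04 in WT and 13.95, 13.92 and 13.95 in G609G, a difference of -0.11 (SE 0.03, adjusted p = 0.00141). Relative to the median probe set the same probe set was 0.36 higher in G609G (adjusted p = 1.28e-06), so its direction turned with the scaling. For the 106 unnamed probe sets at 13 or more, the median G609G minus WT difference was -0.09 in the deposited values and 0.38 after rescaling to the median probe set. Of them 8 were called higher in the deposited values and 97 after rescaling, where 22 and 209 of the 352 named probe sets at 13 or more were. Values so near the ceiling can hide a change, and no direction is read from them.

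The array medians of the unnamed probe sets lay closer together between groups than those of the named ones. The WT arrays had a median of 7.58 ± 0.05 over them, the G609G arrays one of 7.25 ± 0.04 and the LCS arrays one of 7.54 ± 0.03 (SD of the array medians, n = 3 arrays each). For the named probe sets above the limit it was 8.05 ± 0.07, 7.47 ± 0.08 and 8.09 ± 0.04. Over the 10283 unnamed probe sets, pairs of arrays of 1 group correlated with r from 0.962 to 0.985. Pairs of WT and LCS arrays correlated with r from 0.947 to 0.957, WT and G609G with 0.873 to 0.895, and G609G and LCS with 0.856 to 0.872. These are correlations across probe sets that share each array, and probe sets are not independent replicates. No pair of arrays shared more than 1.89% of identical values, so none was counted as a duplicate.

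The comparison of G609G with WT asks which unnamed probe sets differ in fat of the progeria allele. As deposited, 1208 of the unnamed probe sets, or 11.7%, were higher in G609G, where 7.82% of all 172179 tested probe sets were, and 3840, or 37.3%, were lower, where 51.2% of all were. Relative to the median probe set 3365 were higher (32.7%, against 23.2% of all tested) and 1670 lower (16.2%, against 25.2%). The split into higher and lower thus depended on the scaling, but under either one the unnamed probe sets had the larger share of rises and the smaller share of falls. Called in the same direction under both scalings were 1208 higher and 1670 lower. All calls used an adjusted p under 0.05 over all 172179 probe sets.

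The median difference between G609G and WT was -0.25 for the unnamed probe sets and -0.48 for all tested, or 0.23 and 0 relative to the median probe set. The quartiles of the unnamed probe sets were -0.72 and 0.13 as deposited. This contrast with all tested probe sets was present in each of 4 intensity classes that hold equal numbers of tested probe sets. In the lowest class, from 5.01 to 6.51, 9.69% of the unnamed probe sets were higher and 22.8% lower as deposited, against 6.35% and 37.4% of all. In the highest class, from 9.12 to 14.31, 16.1% were higher and 52.3% lower, against 12.1% and 61.1%. The spread within groups was alike, with a median SD of 0.35 in the lowest class for both sets and of 0.1 and 0.11 in the highest.

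**Figure D2:**
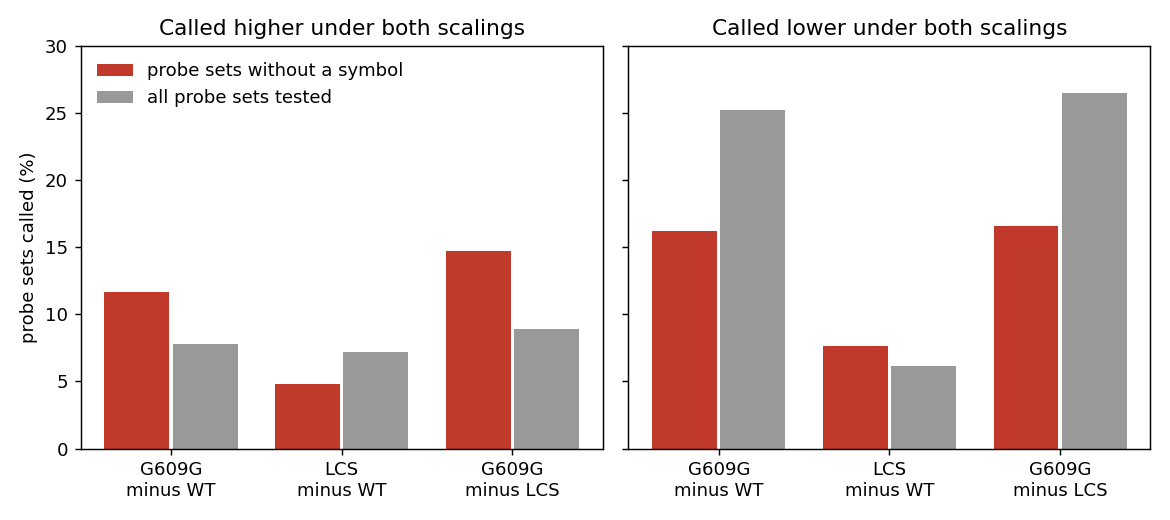
Percent of probe sets called higher (left) and lower (right) under both scalings in each comparison, for the 10283 unnamed probe sets (red) and all 172179 tested (grey), with an adjusted p under 0.05 by limma. In G609G minus WT the red bars stand at 11.7% and 16.2% and the grey bars at 7.82% and 25.2%.

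Among the unnamed probe sets that rose, the 8 largest rises in G609G reached means of 8.33 to 10.89 there, and for 7 of the 8 the WT mean lay under 5.01. Probe set 4676875 had 3.91, 3.99 and 4.30 in WT, 9.82, 9.98 and 10.11 in G609G, and 3.89, 3.43 and 4.02 in LCS. Only the G609G arrays were high, and the groups G609G and WT did not overlap. The probe set passed the limit of 5.01 through G609G alone and so had to differ, and its values are given as a description. The log2 difference was 5.9 (SE 0.25, adjusted p = 3.02e-11), and 6.38 relative to the median probe set. The other 6 with a WT mean under 5.01 also passed the limit through G609G alone. Where a group mean lies at or under 5.01, the difference may understate the size of the change.

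Probe set 5302488 had the same shape, with 4.23, 3.71 and 4.15 in WT, 9.50, 9.19 and 9.20 in G609G and 3.49, 3.46 and 3.10 in LCS, and a G609G minus WT difference of 5.27 (SE 0.26). Probe set 5188460 had 3.81, 3.75 and 3.67 in WT, 8.67, 8.20 and 8.79 in G609G and 3.83, 3.97 and 3.80 in LCS, with a difference of 4.81 (SE 0.25). In both the 6 WT and LCS arrays were dim and the 3 G609G arrays bright. The other 5, which were 5609232, 5593005, 5244059, 4746720 and 5535308, rose by 4.34 to 4.73. Of these 5244059 started highest, at 6.44 ± 0.72 in WT, and reached 10.89 ± 0.11 in G609G (SD, n = 3).

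Without a name, a probe set can still be placed by the genes whose profile over the 9 arrays is most like its own. Likeness was measured as the root mean square difference in log2 between profiles that were each centred on their mean, against 12923 genes with at least 3 named probe sets. Over all 10283 unnamed probe sets the nearest gene was at a median of 0.12, and the 95th percentile was 0.32. A low value says that the levels move alike and says nothing of shared position or function. A flat profile lies close to many genes by this measure.

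Of the 8 largest rises, 2 had Pygm as the nearest gene, 3 had 8030451F13Rik, and Hfe2, Actn2 and Lrrc2 were nearest to 1 each. For 4676875 the nearest genes were Pygm, the muscle glycogen phosphorylase (0.3), and the Z-disc proteins Myoz1 and Myot (both 0.32). Pygm was also nearest to 5302488 (0.32), followed by 8030451F13Rik (0.32) and Apobec2, a cytidine deaminase relative found in muscle (0.33). The nearest gene of 5188460 was Hfe2, which encodes hemojuvelin of liver and skeletal muscle, at 0.09, with the fast myosin Myh2 at 0.15 and the muscle protein Nrap at 0.16. For 5535308 the nearest was Actn2, the sarcomeric alpha-actinin, at 0.19, and for 5609232 and 5593005 it was 8030451F13Rik at 0.17 and 0.35. Myostatin, the muscle growth inhibitor encoded by Mstn, followed at 0.22 for 5609232. Probe set 5244059 was nearest to Lrrc2 (0.33), and 4746720 to 8030451F13Rik (0.52).

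These rises stood beside the skeletal muscle list. All 14 of its measured genes were called higher in G609G, where 8.9% of 12923 genes were, with a median difference of 6.5. Its fast myosin Myh4 was at 3.69 ± 0.05 in WT and 3.79 ± 0.02 in LCS, under the limit, and at 11.06 ± 0.09 in G609G (SD, n = 3). The part of these cells in the rise of the unnamed probe sets was not tested. In all, 156 unnamed probe sets rose by 2 or more as deposited, or 1.52%, against 1.04% of all tested, and 242 did relative to the median probe set, or 2.35%, against 1.55%. The 156 had 76 different nearest genes, led by the actin regulator Cap2 for 9, the M-band protein Myom2 for 8, the apolipoprotein Apoc3 and the Popeye protein Popdc3 for 6 each, and the spermatid gene Ssty2 for 5. Not all of these are muscle genes. The stress gene Trp53inp1 and the muscle gene Des were nearest to 4 each. The stress gene Errfi1 was nearest to 3, as were 8030451F13Rik, Asb15, Fbxo31 and Fbxw14, among others.

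**Figure D3:**
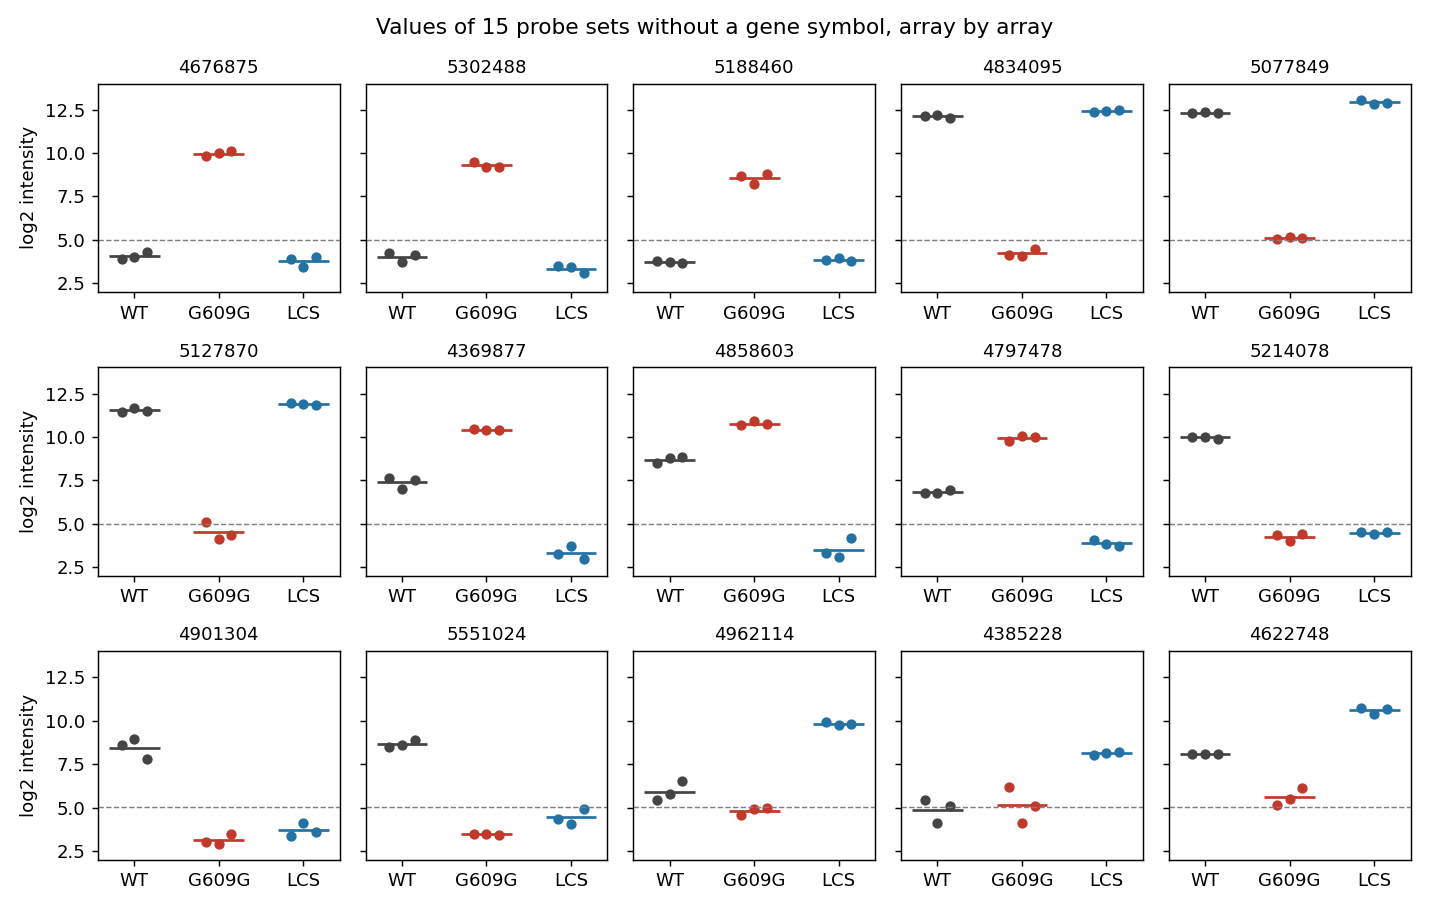
Deposited log2 intensity on each array for 15 unnamed probe sets, with WT in grey, G609G in red and LCS in blue, a short line at each group mean and the dashed line at 5.01. The first 3 are bright only in G609G, the next 3 dim only in G609G, and the last 3 brightest in LCS.

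The 8 largest falls in G609G started from WT means of 9.17 to 12.31, and 7 of the 8 probe sets were also bright in LCS. Probe set 4834095 had 12.15, 12.18 and 12.03 in WT, 4.13, 4.09 and 4.48 in G609G and 12.36, 12.40 and 12.48 in LCS. The G609G arrays alone were dim, and the groups G609G and WT did not overlap. The difference was -7.89 (SE 0.11, adjusted p = 2.4e-16), and -7.41 relative to the median probe set. Its nearest genes were 2210415F13Rik (0.11), the epididymal lipocalin Lcn8 (0.21) and the epididymal glutathione peroxidase Gpx5 (0.23).

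Probe set 5077849 had 12.30, 12.34 and 12.30 in WT, 5.03, 5.15 and 5.12 in G609G and 13.04, 12.83 and 12.90 in LCS. It was low in G609G and also higher in LCS than in WT, by 0.61 (SE 0.08, adjusted p = 9.74e-05), and its nearest genes were Ly6g5b (0.19) and Ly6g5c (0.21), which encode small proteins of the Ly6 family. Probe set 5127870 had 11.46, 11.64 and 11.51 in WT, 5.10, 4.14 and 4.38 in G609G and 11.93, 11.90 and 11.83 in LCS. It fell by 7.0 on the log2 scale (SE 0.18), and its profile lay within 0.11 of the lipocalin Lcn9.

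The same shape was seen in 4661969 and 5539118, which fell by 6.72 and 6.60, and for which the cystatin Cst11 of the epididymis was nearest, at 0.2 and 0.25. Probe sets 4433502 and 4329814 fell by 5.96 and 5.41, with D730048I06Rik nearest to both, at 0.24 and 0.16. The phospholipase Lipi was second for 4329814, at 0.18. In LCS these 4 differed from WT by -0.25 to 0.42 and did not pass the test. The eighth, 5214078, was low in both mutants and is described with the probe sets that changed in both.

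In all, 337 unnamed probe sets fell by 2 or more as deposited, or 3.28%, against 4.57% of all tested, and 152 did so relative to the median probe set, or 1.48% against 2.13%. The latter had 99 different nearest genes and no single leader. The acute-phase gene Saa3 was nearest to 5, and the macrophage elastase Mmp12 and the serine synthesis enzyme Phgdh to 4 each. Beside these falls, 12 of 14 epididymal genes were called lower in G609G, as were 11 of 11 testis germ cell genes, 12 of 14 adipocyte genes and 11 of 12 macrophage genes, where 64.7% of all genes were. Relative to the median gene the counts lower were 11, 10, 9 and 10 in that order, where 35.3% of all genes were, with 2 epididymal, 4 adipocyte and 1 macrophage gene higher. Lcn8 went from 12.74 ± 0.05 in WT to 4.59 ± 0.15 in G609G, while the list median of the adipocyte genes was -0.57. What these cell types contributed to the unnamed probe sets was not tested.

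Set against WT, the LCS arrays show which unnamed probe sets differ where lamin C is made without lamin A. As deposited, 539 unnamed probe sets were higher in LCS, or 5.24%, where 7.73% of all tested were, and 785 were lower, or 7.63%, where 6.2% of all were. Relative to the median probe set the counts were 496 (4.82%, against 7.23%) and 889 (8.65%, against 7.18%). The unnamed probe sets thus had fewer rises and more falls in LCS than all tested probe sets did, the reverse of their order in G609G. The median difference was 0, against 0.05 over all tested. Called in the same direction under both scalings were 493 higher (4.79%, against 7.16%) and 784 lower (7.62%, against 6.19%). The count of rises was 324 without LCS replicate 1 and 333 without LCS replicate 3. For these settings the share over all tested probe sets was not counted.

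The excess of falls was clearest at the bright end. In the highest intensity class 15.1% of the unnamed probe sets were lower in LCS, against 9.43% of all tested, and 13.5% were higher, against 17.4%. In the lowest class 5.04% were lower, against 5.84%, and 1.41% were higher, against 2.89%. The smaller share of rises thus held there too. Falls by 2 or more as deposited numbered 135 among the unnamed probe sets (1.31%, against 1.06% of all tested). Rises by as much numbered 14 (0.136%, against 0.0645%), so at this size the shares of both exceeded those of all tested. Over all tested probe sets 111 rose by as much.

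The largest rise in LCS was that of 4962114, with 5.44, 5.78 and 6.51 in WT, 4.55, 4.92 and 4.96 in G609G and 9.92, 9.75 and 9.83 in LCS. Its LCS arrays lay above all others, and it rose by 3.92 in LCS (SE 0.27, adjusted p = 6.16e-08). G609G lay under WT without overlap, with a difference of -1.1 as deposited (SE 0.27, adjusted p = 0.00259). Relative to the median probe set that difference was -0.62 and did not pass the test (adjusted p = 0.0601). Probe set 4385228 had 5.42, 4.11 and 5.08 in WT, 6.18, 4.14 and 5.10 in G609G and 8.04, 8.17 and 8.19 in LCS. WT and G609G overlapped there and LCS did not overlap either of them, with a rise of 3.26 over WT (SE 0.43, adjusted p = 6.57e-05). The choline transporter Slc5a7 was the nearest gene of both, but only at 0.67 and 0.7, and Slc5a7 itself was at 5.35 ± 0.19 in WT and 8.14 ± 0.12 in LCS.

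Of the other 6 large rises, 5 fell in G609G. Probe set 5166740 had 9.37, 9.25 and 9.39 in WT, 7.94, 7.80 and 8.12 in G609G and 11.56, 11.57 and 11.61 in LCS. Each group lay clear of the others, the rise in LCS was 2.24 (SE 0.1, adjusted p = 5.65e-10), and the nearest gene was Elovl4, an elongase of very long fatty acids, at 0.21. Probe sets 5029580 and 5361759 rose by 2.28 and 2.26 in LCS and had Lcn13, a lipocalin, nearest at 0.32 and 0.28. Probe sets 4622748 and 4354131 rose by 2.53 and 2.21, and their nearest gene, the natural killer receptor Klrb1c, was at 0.48 and 0.46. Probe set 5217024 rose in both mutants.

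The falls in LCS reached lower. Probe set 4858603 had 8.47, 8.80 and 8.82 in WT, 10.67, 10.89 and 10.75 in G609G and 3.29, 3.07 and 4.15 in LCS. It was high in G609G, lower in WT and near the bottom of the scale in LCS, with an LCS minus WT difference of -5.19 (SE 0.25, adjusted p = 9.51e-10). Probe set 5084545 had 7.42, 7.42 and 7.49 in WT, 7.86, 8.06 and 8.17 in G609G and 3.11, 2.62 and 2.99 in LCS. It fell by 4.54 in LCS (SE 0.24), and its profile lay within 0.12 of that of Npy, which encodes neuropeptide Y and was itself at 10.18 ± 0.06 in WT and 5.68 ± 0.13 in LCS.

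Probe sets 5388708 and 4421964 fell in steps. The first had 8.04, 8.41 and 8.58 in WT, 5.25, 5.91 and 5.95 in G609G and 3.58, 4.21 and 3.85 in LCS, and the second 8.60, 8.81 and 8.51, 6.57, 5.93 and 5.97, and 4.39, 4.22 and 4.08. The 3 groups did not overlap in either, and LCS was lowest. The nearest gene of both was Gsg1, a germ cell gene, at 0.31 and 0.22. Probe set 5136536 had the same order, with means of 8.32 ± 0.45, 6.34 ± 0.69 and 4.08 ± 0.18 in WT, G609G and LCS, and lay at 0.4 from AY761185 and from the protamine Prm2, which packs sperm DNA.

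The 135 unnamed probe sets that fell by 2 or more in LCS had 77 different nearest genes. Npy was nearest to 12, the beta-defensin Defb40 to 10, the transcription factor Tcfap2b to 6 and the protease inhibitor Wfdc16 to 5. Beside them, 11 of 11 testis germ cell genes were called lower in LCS, where 12.8% of 12923 genes were, with a list median of -4. Of the 14 epididymal genes 5 were lower and 6 higher in LCS, where 19.2% of genes were higher. Among these 5 the protease inhibitor Spint4 went from 12.8 ± 0.01 in WT to 4.8 ± 0.33 in LCS and the beta-defensin Defb37 from 8.89 ± 0.06 to 5.37 ± 0.35. The part of either tissue in the falls was not tested.

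The comparison of G609G with LCS sets the mutants against each other, and it shares its arrays with the other comparisons. As deposited, 1511 unnamed probe sets were higher in G609G than in LCS (14.7%, against 8.93% of all tested), and 3759 lower (36.6%, against 52.1%). Relative to the median probe set 3709 were higher (36.1%, against 25.3%) and 1706 lower (16.6%, against 26.5%). The median difference was -0.24 in the deposited values, against -0.5 over all tested, and 0.27 against 0 after rescaling. The excess of rises among the unnamed probe sets was widest here in percentage points: in the highest intensity class 21.4% were higher in G609G as deposited, against 13.1% of all.

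Of the 8 largest rises over LCS, 6 were also called lower in LCS than in WT, and 4676875 and 5302488 were not. Probe set 4858603 stood 7.27 higher in G609G than in LCS (SE 0.25, adjusted p = 1.45e-12). Probe set 4369877 had 7.65, 7.0 and 7.53 in WT, 10.43, 10.41 and 10.40 in G609G and 3.27, 3.69 and 2.98 in LCS, a difference of 7.1 (SE 0.25, adjusted p = 1.75e-12). In both of these WT lay between the mutants and clear of them. Probe set 5122880, at 9.76 ± 0.12 in G609G and 3.49 ± 0.10 in LCS with WT at 5.45 ± 0.79 (SD, n = 3), had a difference of 6.27 (SE 0.33). Without its G609G arrays its mean would lie under the limit, so its values are given as a description. Of the others, 4753971, 4797478 and 4771328 differed by 6.09, 6.06 and 5.89, and 4676875 and 5302488, high in G609G alone, by 6.19 and 5.95.

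Among the largest falls against LCS were 4834095, 5077849, 5127870, 4661969, 5539118 and 4433502, described above, with differences between -5.71 and -8.18. Probe set 4469285 had 8.37, 8.33 and 8.32 in WT, 4.13, 4.11 and 3.88 in G609G and 9.90, 9.97 and 9.98 in LCS. Each group lay clear of the others, and G609G was 5.91 below LCS (SE 0.18, adjusted p = 5.28e-13). The epididymal membrane protein Teddm1, the bactericidal protein Bpi and the secreted Wnt antagonist Sfrp5 were its nearest genes, all at 0.18. Probe set 4996348 was at 9.27 ± 0.09 in WT, 3.87 ± 0.40 in G609G and 9.65 ± 0.10 in LCS, with Lipi nearest at 0.34.

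As deposited, 228 unnamed probe sets stood 2 or more higher in G609G than in LCS, or 2.22%, against 1.36% of all tested, and 354 did relative to the median probe set, or 3.44%, against 2.06%. The 228 had 98 different nearest genes, with Npy first for 12, Cap2 and Defb40 for 10 each, Myom2 for 8 and Fabp3 for 7. Lower by 2 or more were 340 as deposited, or 3.31%, against 5.61%, and 171 relative to the median, or 1.66%, against 2.59%. The 106 nearest genes of the 171 were led by Lcn13 for 7 and the growth factor relative Fgf13 for 6.

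Both mutants were next read together. An unnamed probe set was counted where it was called against WT in both mutants and under both scalings, and the comparisons share the WT arrays. It was higher in both for 65 (0.632%, against 1% of all tested), and lower in both for 248 (2.41%, against 3.01%). It was lower in G609G and higher in LCS for 200 (1.94%, against 2.94%). The remaining combination, higher in G609G and lower in LCS, held 168, or 1.63%, against 0.551% of all tested. It was the only combination of the 4 in which the unnamed probe sets exceeded the share of all tested. Under quantile normalization alone, a setting chosen after seeing the data, the 4 counts in the order given were 144, 297, 208 and 394. Without LCS replicate 3 the count higher in both was 39. Shares over all tested probe sets were not counted in these settings, so no excess is read from these counts.

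**Figure D4:**
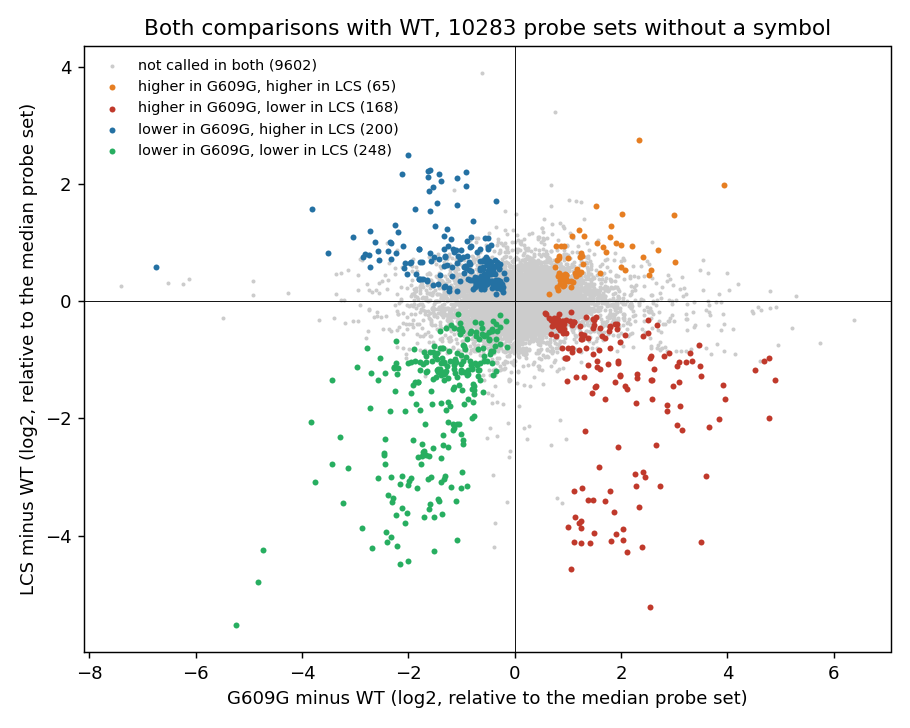
Log2 difference from WT in G609G (horizontal) and in LCS (vertical) for each of the 10283 unnamed probe sets, both relative to the median probe set. Coloured points are called in both under both scalings, with 65 in orange, 168 in red, 200 in blue and 248 in green, and the other 9602 are grey.

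Probe sets higher in G609G and lower in LCS include some of the widest separations between the mutants. Where both deposited differences were at least 1 on the log2 scale, 61 unnamed probe sets had this combination, or 0.593%, against 0.131% of all tested, and they made up 27.1% of all 225 such probe sets. Their medians were 7.05 in WT, 9.23 in G609G and 4.46 in LCS, and the LCS mean was at or under 5.01 for 36 of them. The nearest genes were Defb40 for 9, Myom2 and Npy for 8 each, the muscle fatty acid binding protein Fabp3 for 6, the muscle phosphoglycerate mutase Pgam2 for 5 and the tubulin Tuba8 for 4. Fabp3 also stood in a list of 7 measured brown adipocyte genes. The means of that list were 6.96 to 6.98 in WT, 7.39 to 7.45 in G609G and 6.13 to 6.34 in LCS. Not all its genes had this order: Ucp1 was at 6.76 ± 0.18 in WT and 4.79 ± 0.13 in G609G. The skeletal muscle list means were 5.22 to 5.35 in WT and 5.49 to 5.55 in LCS. The part of either list was not tested. The profiles of the 61 had a median distance to the nearest gene of 0.34, against 0.12 over all unnamed probe sets. In the other combinations at this size it was 0.31 (higher in both), 0.27 (the reverse) and 0.22 (lower in both). Since probe sets with larger differences between groups also have larger distances, this gap is given as a description.

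The strongest of this combination were 4369877, 4797478 and 5307475. Probe set 4797478 had 6.78, 6.75 and 6.93 in WT, 9.77, 10.03 and 10.01 in G609G and 4.09, 3.82 and 3.71 in LCS, with differences of 3.12 and -2.95 from WT (SE 0.22 each). Its nearest gene Myom2 had the same order, at 6.05 ± 0.05, 9.18 ± 0.06 and 4.6 ± 0.04, and lay at 0.72. Probe set 5307475 had 5.88, 6.88 and 7.02 in WT, 8.75, 8.77 and 9.06 in G609G and 3.55, 3.64 and 3.24 in LCS, and Defb40 was nearest at 0.65. In each of these the 3 groups stood clear of one another.

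Only 2 unnamed probe sets lay more than 0.9 from every gene, 4369877 and 4858603, and both had this order. For 4369877 the nearest genes were Npy at 1.15, the beta-defensin Defb22 at 1.18 and Myom2 at 1.24. For 4858603 they were Wfdc13, a protease inhibitor of the whey acidic protein family, at 0.93, Defb22 at 0.95 and Npy at 1. The distance of 4858603 from Wfdc13 lay in WT and G609G: the gene was at 12.2 ± 0.02 in WT and 12.03 ± 0.04 in G609G, while the probe set was 2.07 higher in G609G than in WT (SE 0.25, adjusted p = 3.74e-06). In LCS both were low. Probe sets 4753971 and 4771328 had Npy nearest at 0.73 and 0.66 and rose in G609G by 1.92 and 1.64, where Npy was at 10.18 ± 0.06 in WT and 10.64 ± 0.03 in G609G.

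**Figure D5:**
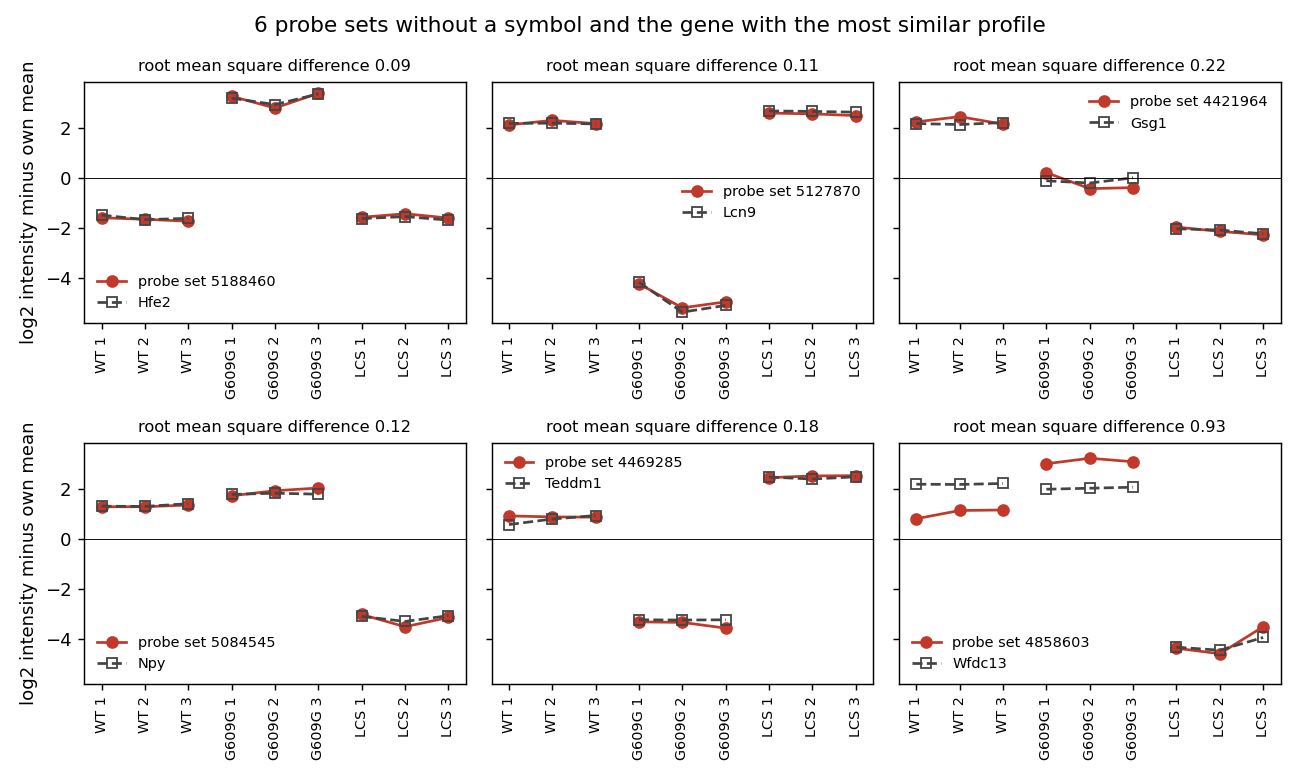
Profiles over the 9 arrays of 6 unnamed probe sets (red) and of the gene nearest to each (dashed grey), as log2 intensity minus the own mean, with the root mean square difference above each panel. The first 5 pairs lie within 0.22, and 4858603 and Wfdc13, at 0.93, part in WT and G609G and meet in LCS.

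The reverse combination, lower in G609G and higher in LCS, held 32 unnamed probe sets with both differences at least 1, or 0.311%, against 0.473% of all tested. Their medians were 7.83 in WT, 5.46 in G609G and 9.18 in LCS. Lcn13 was nearest to 7 of them, the gastric lipase Lipf to 4 and Elovl4 to 3. The leading members were 4622748, 4354131 and 4641976. Probe set 4622748 had 8.09, 8.08 and 8.08 in WT, 5.16, 5.49 and 6.15 in G609G and 10.75, 10.41 and 10.67 in LCS. Probe set 4641976 had 6.82, 5.94 and 6.19 in WT, 4.14, 4.06 and 4.40 in G609G and 8.63, 8.32 and 8.49 in LCS, and Lcn13 was nearest at 0.29. All 3 groups lay apart in each, with LCS on top.

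Low in both mutants were 167 unnamed probe sets with both differences at least 1, or 1.62%, a share near that of all tested (1.65%). Probe set 5214078 had 10.01, 10.01 and 9.90 in WT, 4.36, 3.99 and 4.41 in G609G and 4.51, 4.40 and 4.53 in LCS. It fell by 5.72 in G609G and by 5.49 in LCS (SE 0.23 each), and the mutants did not pass the test against each other (difference -0.23, SE 0.23, adjusted p = 0.416). Its nearest genes were Mael, of the germ line piRNA pathway, at 0.6 and the testis lactate dehydrogenase Ldhc at 0.69. Probe set 4901304 had 8.58, 8.94 and 7.81 in WT, 2.99, 2.93 and 3.50 in G609G and 3.34, 4.11 and 3.61 in LCS, and Mael was nearest at 0.71. Probe set 5551024 went from 8.67 ± 0.22 in WT to 3.46 ± 0.03 in G609G and to 4.45 ± 0.45 in LCS (SD, n = 3), and was nearest to the mucin Muc5b and the protease inhibitor Spink2, both at 0.53. In each of these named probe sets both mutant means lay under 5.01. They passed the limit through WT alone and so had to differ, and their values are given as a description. Over the 167 the nearest genes were spread over 115. The transcription factor Tcfap2b was first for 6, and the sperm tail protein Akap4 was nearest to 3.

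High in both mutants were 9 unnamed probe sets with both differences at least 1, or 0.0875%, against 0.0691% of all tested. Probe set 5073004 had 5.21, 4.35 and 5.29 in WT, 8.43, 8.35 and 8.42 in G609G and 6.85, 7.16 and 6.90 in LCS. It rose by 3.45 in G609G (SE 0.26) and by 2.02 in LCS (SE 0.26), with the groups apart, and the skeletal actin Acta1 was nearest at 0.37, followed by the cell cycle inhibitor Cdkn1a at 0.46 and the stress gene Ddit4 at 0.52. Probe set 5217024 had 5.35, 4.61 and 5.05 in WT, 6.29, 6.51 and 7.79 in G609G and 7.78, 7.55 and 8.02 in LCS. The mutants overlapped there and both lay above WT, by 1.86 (SE 0.35) and 2.78 (SE 0.35), and the small heat shock protein gene Hspb7 was nearest at 0.63. Probe set 4490930 had 6.44, 7.25 and 5.87 in WT, 7.89, 7.95 and 8.32 in G609G and 7.96, 8.03 and 8.13 in LCS, with Fibin nearest at 0.45.

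Counted by order alone, with no array of one group overlapping another, 297 unnamed probe sets ran from G609G through WT down to LCS as deposited, or 2.89%, against 1.12% of all tested. Relative to the median probe set they were 804, or 7.82%, against 4.07%. The opposite order, from LCS through WT down to G609G, held 787 as deposited, or 7.65%, against 12.5%, and 440 relative to the median, or 4.28%, against 7.23%. WT was on top and G609G lowest for 390 as deposited (3.79%, against 5.19%) and 203 relative to the median (1.97%, against 2.65%). WT was on top and LCS lowest for 134 (1.3%, against 0.924%) and 116 (1.13%, against 1.14%).

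Many unnamed probe sets were not called in any test, which with 3 arrays a group does not show that they did not differ. In no comparison and under neither scaling were 2245 called, or 21.8%, against 16.7% of all tested, and their median level was 6.2. Called in at least 1 comparison in the same direction under both scalings were 4043, or 39.3%, against 45%, with a median level of 8.06. A mean of 8 or more in one group beside a mean at or under 5.01 in another was found for 53 unnamed probe sets in G609G against LCS (0.515%, against 0.34% of all tested) and 28 in LCS against G609G (0.272%, against 0.343%). It was found for 20 in WT against G609G (0.194%, against 0.281%) and 20 in WT against LCS (0.194%, against 0.171%). It was found for 19 in G609G against WT (0.185%, against 0.264%) and 1 in LCS against WT (0.00972%, against 0.00116%). Such probe sets passed the limit through the group in which they were high, so their number is no support for a change.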

How the data were processed

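For each of 9 Affymetrix exon arrays the authors deposited 229581 log2 values, 1 for every probe set. Per the labels' protocols the RNA was fragmented and biotinylated with the WT Terminal Labeling Kit. Genome build mm9 is given in the submitters' processing notes, while the values' normalization and summary are not given in the sources used here. That the scale is log2 was read from the values. The design text counts 10 samples, and 9 were analysed here. Names came from the platform annotation table. It gave exactly 1 symbol for 208397 probe sets and several for 3965. Positions and probe sequences were not used here.

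Groups and replicate numbers came from the titles. All 172179 probe sets with a mean above the 25th percentile (5.01) were fitted with limma (lmFit, then eBayes with a trend), all 9 arrays entering 1 fit. The p-values were adjusted after Benjamini-Hochberg and called under 0.05. Changes relative to the median probe set subtract each array's median deviation from the probe set means. Gene profiles were median polish summaries (at most 10 rounds) of at least 3 probe sets with 1 symbol. Each adjusted p in the text is limma's. The number of arrays limits the precision. The limma fit was tested on simulated data for G609G minus WT, and the other steps were not.

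Named probe sets are the 8 largest rises and falls per comparison among those called under both scalings without overlap, the 3 with the largest smaller difference in each combination of both mutants, the 5 brightest and the 2 on each side of the limit, which gives 49 besides the 2 below it. Genes are named as the 3 nearest profiles, as the commonest nearest genes, or from the marker lists. The unnamed probe sets, lists and tests were chosen with earlier results of these data known.

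The labels do not say what replicate numbers share. For WT and G609G, arrays of the same number deviated together from their group means (r = 0.135, 0.113 and 0.26). Each r is above 0.1, and the numbers were taken to pair that comparison. The reported differences, SE, adjusted p and counts come from the fit with group alone, which leaves this pairing out. A replicate block was run only as an alternative. For WT and LCS they gave -0.078, 0.129 and 0.052, and for G609G and LCS -0.069, 0.11 and 0.08. Alternatives covered the scaling, filter, variance model, array weights, arrays in the fit, a replicate block, the methods' t-test (unpaired, fold of at least 1.5) and leaving out each array. R 4.3.3, limma 3.58.1, jsonlite 2.0.0, data.table (version 1.17.8), matplotlib 3.10.9 and Python 3.11.15 were used.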

Additional observations from a re-analysis of the deposited data

How the results depend on the processing

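The direction split in G609G depends on the scaling. Against WT the 1208 rises and 3840 falls became 3365 and 1670 relative to the median probe set, 3914 and 1438 with arrays centred on their medians and 3394 and 1711 after quantile normalization. Against LCS the 1511 rises and 3759 falls became 3709 and 1706, 4236 and 1441, and 3746 and 1707. The median difference moved from -0.25 to 0.23, 0.32 and 0.22 against WT and from -0.24 to 0.27, 0.37 and 0.27 against LCS. The methods' t-test at a fold of 1.5 gave 776 rises and 2527 falls in G609G against WT and 950 rises against LCS. After Benjamini-Hochberg it gave 645 and 2076 against WT, 843 and 2311 against LCS, and 178 and 312 in LCS against WT. Rises in LCS against WT numbered 539 in the fit as reported, 347 with a constant prior variance and 976 with array weights. For the rescaling to the median probe set the shares over all tested probe sets are given above. In the other settings of this section only unnamed probe sets were counted, without the share over all tested. No excess or deficit of the unnamed probe sets is read from those counts. The cause of these moves was not tested.

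With the replicate block over the 9 arrays the rises and falls were 1272 and 4002 in G609G against WT, 628 and 861 in LCS against WT and 1579 and 3903 in G609G against LCS. With the replicate block over the 2 groups compared they were 1280 and 3902, 831 and 1020, and 1520 and 3734. The block changed no other count by over 1.5 times than the 831, a comparison in which the numbers do not pair. Among the 9 arrays, 8 were most like those of their own number, a hint from the data and not the design.

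Leaving out 1 array at a time, rises and falls ranged from 1083 to 1214 and 3440 to 3963 in G609G against WT, 324 to 693 and 605 to 922 in LCS against WT, and 1324 to 1543 and 3286 to 3865 in G609G against LCS. Of the combinations over both mutants, added after seeing the data, higher in both ranged from 39 to 74, higher in G609G and lower in LCS from 125 to 172, the reverse from 141 to 246 and lower in both from 199 to 295. For 66 differences of named probe sets, all 1284 alternative values kept their direction and their side of the threshold. These differences were chosen as called under both scalings, and the brightest probe sets and those next to the limit are not among them. The methods' t-test is not among the settings here, and probe sets under the stricter of the filters have no value for it. Dim group means limit the size of differences, and values near the ceiling hide them.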
